A study of Mus musculus with 2 samples.

Results

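Broad regions of enrichment were examined in mouse leukaemia cells, in a library of DNA pulled down with a KLF4 antibody and sequenced (ChIP-seq). The deposited list held 8148 intervals, and the 410 of at least 2.5 kb (2500 bp) were selected on their width. They were 5.03% of the list (95% exact binomial interval 4.57 to 5.53%). The remaining 7738 intervals are called the narrower intervals. Each interval comes with 1 summit and 1 whole-number score, called the peak height here, whose scale is named nowhere in the sources used here.

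The study used bone marrow cells of mice carrying a NOTCH1-induced T-ALL (acute lymphoblastic leukaemia of T cells), sorted 4 weeks after transplantation as positive for GFP, CD4 and CD8. The series holds 2 libraries, 1 KLF4 ChIP library and 1 input library, and values were analysed for the ChIP library alone. Both carry the same strain label, C57BL/6 with Klf4flox/flox and vav-Cre, in which the Vav promoter drives Cre in blood-forming cells. The ChIP library is labelled KLF-4 KO and the input library Normal. Under a true knockout the antibody would lack its target, so a listed region cannot be read as a place where KLF4 was bound. The number of mice behind each library is not given in the sources used here, and there are no replicates. The labelled cell type could not be checked against marker genes, since the list carries no gene names.

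KLF4 belongs to the Krüppel-like transcription factors, binds DNA through zinc fingers at GC-rich and CACC-type sequence, and acts both as an activator and as a repressor. NOTCH1 is a receptor whose cleaved intracellular part enters the nucleus and switches on target genes, and its activation is a frequent event in T-ALL. Sequence-specific factors usually give short enriched regions around their sites. Wide regions are the usual form of many histone marks, and are also seen where many sites lie side by side, as in clusters of enhancers. Genes and sequence were not assigned to the intervals, because no mm9 annotation or genome was used here, so the regions are given by position (mm9, counted from 1).

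Most broad intervals were only moderately wider than the limit, and a small tail was far wider. Their widths ran from 2500 to 15682 bp with a median of 3072.5 bp and quartiles of 2704 and 3913 bp. Of the 410, 191 were under 3000 bp and 314 (76.6%) were under 4000 bp. In the tail, 46 reached 5000 bp and 3 reached 10000 bp. The broad intervals covered 1.48 of the 10.7 Mb in the list, or 13.8%. The narrower intervals had a median width of 1108 bp and quartiles of 884 and 1431 bp.

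The width limit cut through a continuous distribution. The 5 intervals just inside it were 2500, 2500, 2506, 2508 and 2509 bp wide, with heights of 20, 13, 19, 25 and 15. The 5 just outside it were 2495, 2498, 2498, 2498 and 2499 bp wide, with heights of 19, 17, 21, 24 and 25. Heights on both sides of the limit overlapped.

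Broad intervals were taller than narrower ones in this list, with a wide overlap. Their median height was 22.5, with quartiles of 18 and 27.75, a lowest value of 11 and a highest of 278. The narrower intervals had a median height of 15, quartiles of 13 and 19, and a range of 8 to 180. A height of at least 20 was reached by 277 broad intervals (67.6%, 95% interval 62.8 to 72.1%) and by 1667 narrower ones (21.5%, 20.6 to 22.5%). Height and width come from the same signal and width chose the members, so these values are a description and no test was made. For the same reason, and because intervals of 1 library are not replicates, no difference between broad and narrower intervals in what follows was tested. Counting error is all that the 95% intervals cover, and clustering of intervals makes them too narrow.

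**Figure D1:**
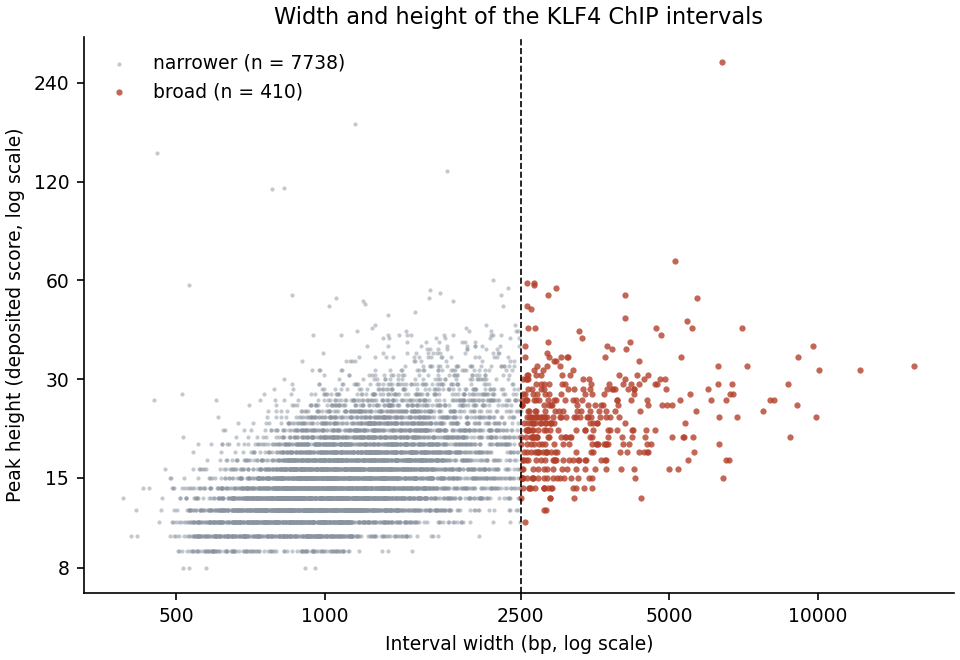
Each point is 1 interval of the KLF4 ChIP list, with its width in bp (x axis, log scale) against its peak height (y axis, log scale, deposited score), and the dashed line marks 2500 bp. The broad intervals (red) have a median height of 22.5 and the narrower ones (grey) of 15, and the broad interval of height 278 stands apart from all other points.

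Height alone did not determine whether an interval was broad. The broad share rose over the height classes, from 0 of 500 intervals at heights of 8 to 10 (which allows up to 0.735%) to 42 of 2296 (1.83%) at 13 to 15, 109 of 986 (11.1%) at 21 to 25, and 20 of 63 (31.7%, 95% interval 20.6 to 44.7%) at 41 or more. Thus 43 of the 63 tallest intervals were narrower than 2500 bp. Across all 8148 intervals, which share 1 library and are not independent replicates, height and width had a Spearman rho of 0.53. Within the broad intervals rho was 0.19, and within the narrower ones 0.49. The width limit cuts the range of widths in both classes.

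The tallest broad interval lay alone. Its 6394 bp lay on chromosome 17 (39979510 to 39985903), its height was 278, and the nearest other interval was 1085243 bp away. Every other broad interval was at or below 69. The input library was not analysed and no mm9 genome was used. Whether this height is particular to the ChIP library, or lies on repeated sequence, was therefore not tested. The 9 next tallest had heights of 50 to 69, and 6 of these 9 were under 3000 bp wide.

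At the other end, 45 broad intervals (10.98%) did not exceed 15, the median height of the whole list. The lowest height was 11, in an interval of 2547 bp on chromosome 8 (73903227 to 73905773). Both broad intervals of height 12 were on chromosome 11, at 58803685 to 58806498 and 75580392 to 75583177. Among those of height 13 was one of 4381 bp on chromosome 10 (80826069 to 80830449). Broad intervals thus included wide, shallow regions as well as tall ones.

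The 20 widest intervals lay on 10 chromosomes, and 5 of them on chromosome 11. That chromosome held 820 of the 8148 intervals and 13.9% of the broad ones. Its intervals of 9922 and 12159 bp were pieces of the same stretch, described below. Heights of the 20 widest ran from 17 to 43, and none was among the 10 tallest broad intervals. The widest of all spanned 15682 bp and reached a height of 33 (chromosome 5, 121124190 to 121139871). Chromosome 11 held, among others, intervals of 9133 bp (87567080 to 87576212, height 35), 9077 bp (116194030 to 116203106, height 25) and 8705 bp (95687592 to 95696296, height 29). An interval on chromosome 3 (94200666 to 94209467) was wide for its height, with 8802 bp and a height of 20. Similar heights were listed for 7997 bp on chromosome 8 (108141303 to 108149299, height 26) and for 7751 bp on chromosome 7 (19888268 to 19896018, height 24). The tallest of the 20 was an interval of 7016 bp on chromosome 8 (73221520 to 73228535), with a height of 43.

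Broad intervals lay closer to other intervals than narrower ones did. The gap from a broad interval to the nearest other interval had a median of 3232 bp (quartiles 387 and 17166.5 bp), against 25412 bp (5250 and 76402 bp) for the narrower intervals. Another interval lay within 1 kb of 147 of 410 broad intervals (35.9%, 95% interval 31.2 to 40.7%) and of 1078 of 7737 narrower ones (13.9%, 13.2 to 14.7%). Within 10 kb the shares were 67.1% and 32.7%. The interval on chromosome Y had no neighbour and is not counted.

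Inside the broad class, the share with a close neighbour was highest in the widest intervals. It was 27.2% (52 of 191) at 2500 to 2999 bp, 35.8% (44 of 123) at 3000 to 3999 bp, 38.0% (19 of 50) at 4000 to 4999 bp and 69.6% (32 of 46) at 5000 bp or more. The 95% intervals of the first 3 classes overlapped (21.05 to 34.1%, 27.3 to 44.9% and 24.7 to 52.8%), and that of the widest class (54.2 to 82.3%) lay above all of them. The widest class counts pieces of the same stretch apart, such as those of 9776, 8163 and 6522 bp on chromosome 2. How far its share and its distance from the other classes rest on such stretches was not tested. Among narrower intervals the share was 16.8% under 1000 bp and lowest at 1000 to 1499 bp (11.2%, 95% interval 10.1 to 12.3%). It was 13.1% at 1500 to 1999 bp and 16.4% (13.1 to 20.1%) at 2000 to 2499 bp.

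**Figure D2:**
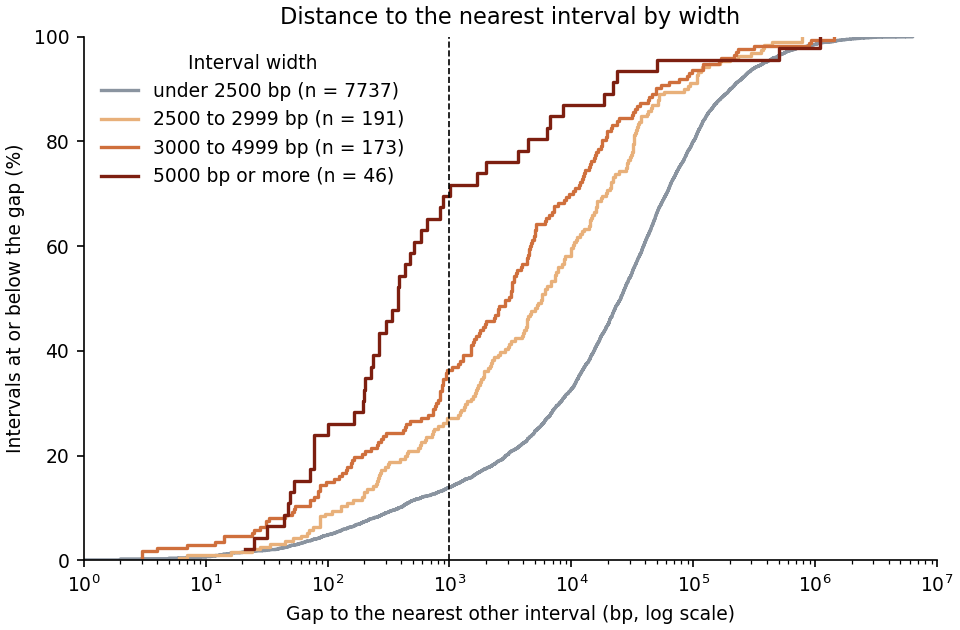
Cumulative share of intervals (y axis, %) by the gap to the nearest other interval (x axis, bp, log scale), with 1 line for each width class and a dashed line at 1 kb. At 1 kb the line of intervals of 5000 bp or more stands at 69.6% and that of intervals under 2500 bp at 13.9%.

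In each class of height that held broad intervals, close neighbours were listed for a higher share of broad than of narrower ones. The lowest classes held few, with 3 broad intervals of 1376 at heights of 11 to 12 and 0 of 500 at 8 to 10. No 95% intervals are given by class, and whether the difference is resolved at low heights was not tested. At heights of 13 to 15 a neighbour within 1 kb was listed for 11 of 42 broad intervals (26.2%) and 352 of 2254 narrower ones (15.6%). At 21 to 25 the shares were 30.3% (33 of 109) and 8.89% (78 of 877), and at 31 to 40 they were 42.5% (17 of 40) and 5.37% (8 of 149). Among narrower intervals the share was 22.6% at heights of 8 to 10 and 8.89% at 21 to 25, whereas low broad intervals (at or below 15) had 26.7% (12 of 45) and taller ones 37.0% (135 of 365), with overlapping 95% intervals (14.6 to 41.9% and 32.02 to 42.2%). On 18 of the 19 autosomes the share was higher among broad than among narrower intervals. The exception was chromosome 3, where 0 of 18 broad intervals and 11.6% of the narrower ones had a neighbour within 1 kb.

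The close neighbours of broad intervals were mostly ordinary narrow peaks. A narrower interval lay within 1 kb of 115 broad intervals, and another broad one within 1 kb of 41. Median height was 14 and median width 1083.5 bp among the 120 narrower intervals beside a broad one. The medians were 14 and 1035.5 bp among the 958 that lay within 1 kb of narrower intervals alone. In 101 of the 120 the height was below that of the taller broad interval beside it. Median height was 22.5 in all broad intervals and 15 in all narrower ones, so a high count is partly built in. A matching count for broad and narrower intervals that are not neighbours is not given here.

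Adjacent intervals that were both broad were close together more often than other neighbouring pairs of this list. Of 8127 pairs of neighbours in the list, both were broad in 37, and 21 of these 37 pairs (56.8%, 95% interval 39.5 to 72.9%) were at most 1 kb apart. The share was 16.6% (124 of 745) in pairs with 1 broad interval and 7.23% (531 of 7345) in pairs with none. Of the 219 pairs less than 100 bp apart, 46 (21.005%) included a broad interval, against 782 of all 8127 pairs (9.62%). Whether the peak caller divided single regions into such pieces was not tested.

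Broad intervals also lay in more crowded surroundings on a larger scale. Within 100 kb of the summit on either side, a broad interval had a median of 5 other summits (quartiles 2 and 8) and a narrower one 2 (quartiles 1 and 5). At least 10 others were found around 74 broad intervals (18.0%, 95% interval 14.4 to 22.1%) and 552 narrower ones (7.13%, 6.57 to 7.73%). Read the other way, 1.89% (30 of 1591) of intervals with no other summit in that window were broad, 5.99% (91 of 1520) of those with 4 to 6 others and 12.3% (61 of 495) of those with 10 to 14. In the most crowded class, 15 or more others, the share was 9.92% (13 of 131, 95% interval 5.39 to 16.4%), and its interval overlapped those of the 4 classes below it. The median height was 14 to 16 in all of these classes.

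A small set of broad intervals was isolated. In 30 of 410 (7.32%, 95% interval 4.99 to 10.3%) the nearest interval was over 100 kb away, against 1548 of 7737 narrower ones (20.01%, 19.1 to 20.9%). The median width of these 30 was 2790.5 bp and their median height 23, close to the 22.5 of all broad intervals. The most isolated was an interval of 3084 bp and height 20 on chromosome 19 (32830253 to 32833336), with a nearest gap of 1433228 bp. On chromosome 2 (58008482 to 58013382), 4901 bp with a height of 30 lay 917424 bp from the nearest interval. On chromosome 13 (81021886 to 81025951), 4066 bp with the same height lay 895860 bp from it.

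When broad intervals at most 10 kb apart were joined, 331 of the 410 stayed single, 66 formed 33 pairs, and 13 formed 4 longer stretches. The 33 pairs had a median gap of 878 bp, and 7 of them held a narrower interval in between. In the closest pair, on chromosome 9 at 32503001 to 32510346, intervals of 3098 and 4245 bp with heights of 35 and 28 were 3 bp apart. A second pair on chromosome 9, at 107948540 to 107955787, had a gap of 7 bp and heights of 23 and 20. On chromosome 4 at 33328900 to 33336159 intervals with heights of 34 and 36 were 87 bp apart.

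Intervals covered 91.1 to 97.8% of each of the 4 longer stretches. The longest spanned 35682 bp on chromosome 11 at 52062616 to 52098297. It held 7 intervals, of which 3 were broad, and the intervals covered 93.9% of it with gaps of 32 to 723 bp. Its broad intervals were 9922, 6311 and 12159 bp wide, with heights of 23, 23 and 32. Between them lay 4 narrower intervals with heights of 11 to 17.

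The stretch on chromosome 2, at 26311648 to 26341372, spanned 29725 bp and held 4 broad intervals and 1 narrower one, which covered 97.8% of it with gaps of 78 to 265 bp. From the lower to the higher coordinate, its broad intervals had widths of 9776, 8163, 6522 and 3232 bp and heights of 38, 26, 17 and 14. Both width and height of the broad intervals were thus lower from one to the next along the stretch. The narrower interval among them had a height of 17.

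Chromosome 5 held the other two. At 121124190 to 121149103 a stretch of 24914 bp consisted of 3 broad intervals, 15682, 2639 and 5501 bp wide, with heights of 33, 15 and 27 and gaps of 432 and 660 bp. At 124564179 to 124590320 a stretch of 26142 bp held 3 broad and 2 narrower intervals. The broad ones were 10069, 6610 and 5213 bp wide with heights of 32, 17 and 16, and the intervals covered 91.1% of the stretch with gaps of 21 to 1512 bp. Merging at 1 kb divided this stretch. In all 4 stretches the tallest interval was also the widest, and it lay at one end. The ends are set by the outermost broad intervals, so an end is not always the edge of a run of intervals. Before the tallest interval of the stretch at 124564179, another interval lay 331 bp away.

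**Figure D3:**
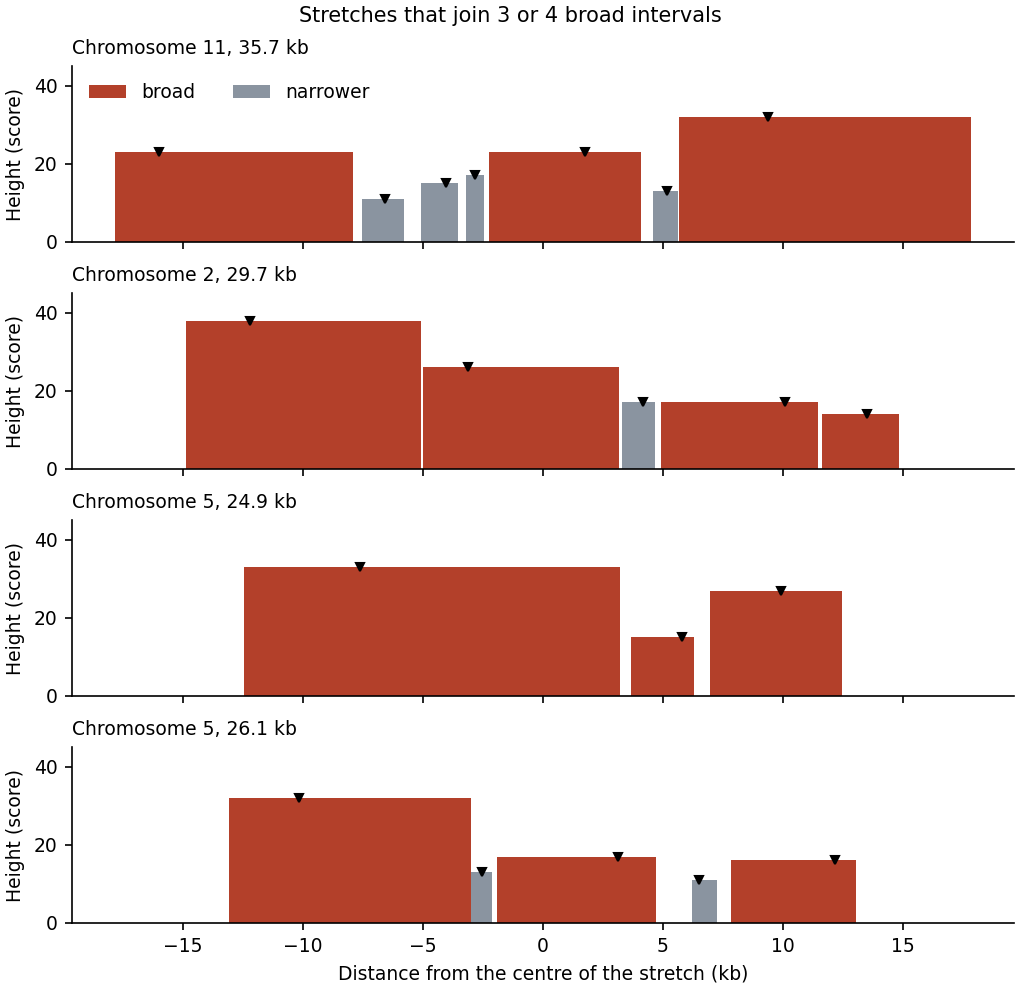
The 4 stretches that join 3 or 4 broad intervals, with distance from the centre of the stretch in kb (x axis) and 1 bar per interval whose length is its width and whose level is its height (y axis, deposited score; the bar is not a signal profile). Triangles mark summits, broad intervals are red and narrower ones grey, and the tallest bar of each stretch (heights of 32, 38, 33 and 32) is at one end of it.

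Summits of broad intervals lay farther from the centre than those of narrower intervals. The distance from the summit to the centre had a median of 17.4% of the width in broad intervals (quartiles 8.04 and 27.1%) and 9.87% in narrower ones (4.53 and 16.8%). In base pairs the medians were 572 and 105. From the summit, the shorter side of a broad interval had a median length of 1077 bp and the longer side 2126.5 bp, and in narrower intervals the medians were 427 and 678 bp. These distances in base pairs are bounded by the width, which chose the members, so larger values in broad intervals are partly built in. Of all summits, 75.1% were multiples of 32 bp, so summits are known only to about that distance. It is small beside the median of 572 bp in broad intervals, but not beside the median of 105 bp and lower quartile of 44.5 bp in narrower ones.

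Summits were nearest to the centre in the narrowest intervals, and the distance did not step up at the width limit. The median distance to the centre was 6.73% of the width under 1000 bp, 11.4% at 1000 to 1499 bp and 13.8% at 1500 to 1999 bp. It was 14.9% both at 2000 to 2499 bp and at 2500 to 2999 bp, then 17.8% at 3000 to 3999 bp, 22.3% at 4000 to 4999 bp and 20.998% at 5000 bp or more. Within classes of height it stayed above that of narrower intervals, as at heights of 21 to 25 (16.2% against 9.81%) and at 13 to 15 (15.1% against 9.92%). On chromosome 17, at 45700576 to 45707272, the summit of an interval of 6697 bp with a height of 29 lay 481 bp from one end and 6216 bp from the other. On chromosome 1, at 135969585 to 135976311, an interval of 6727 bp with a height of 27 had its summit 599 bp from one end and 6128 bp from the other. The interval of height 278 had sides of 2991 and 3403 bp.

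**Figure D4:**
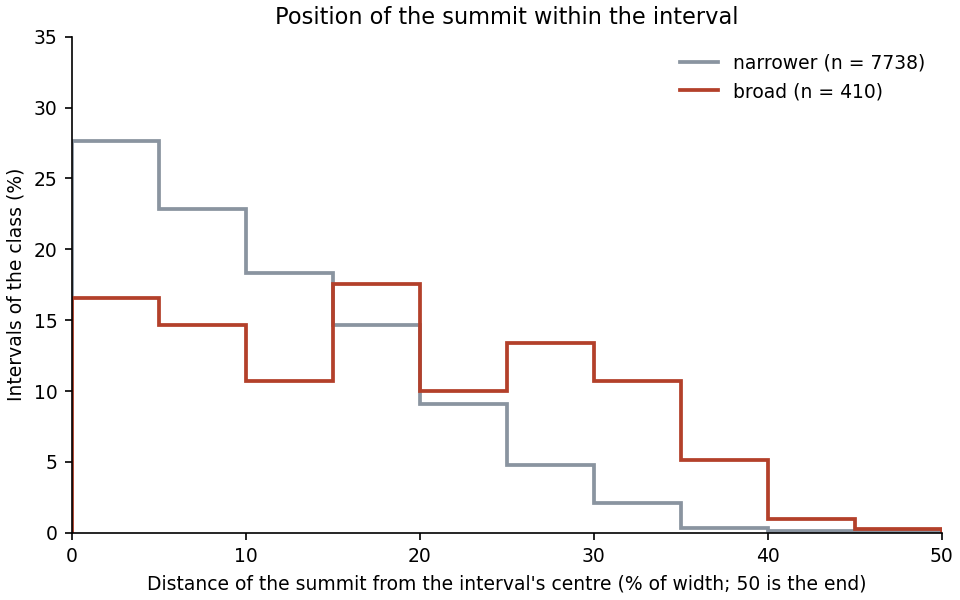
Share of each class of intervals (y axis, %) by the distance of the summit from the centre of its interval (x axis, % of the width, in bins of 5, where 50 is the end of the interval). The broad intervals (red, median 17.4%) reach farther from the centre than the narrower ones (grey, median 9.87%).

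Broad intervals with another interval within 1 kb had a median distance from summit to centre of 19.3% of the width (n = 147), and those without one 16.2% (n = 263). The first group was also wider, with a median of 3474 bp against 2939 bp, and the part of width in this difference was not tested. The values were 11.5% and 9.62% in narrower intervals. Of 128 broad intervals with a close neighbour on exactly 1 side, the summit lay in the part away from the neighbour in 77 (60.2%, 95% interval 51.1 to 68.7%). In narrower intervals of the same kind it lay away from the neighbour in 428 of 970 (44.1%, 40.97 to 47.3%).

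The broad share differed between chromosomes by less than their counting error in most cases. On 15 of the 19 autosomes the 95% interval of the share held the 5.03% of the whole list. It was above on chromosome 17 (35 of 450, 7.78%, 5.48 to 10.7%) and on chromosome 11 (57 of 820, 6.95%, 5.31 to 8.91%), and below on chromosome 2 (20 of 626, 3.19%, 1.96 to 4.89%) and chromosome 14 (5 of 250, 2%, 0.653 to 4.61%). These intervals were not adjusted for the number of chromosomes. Chromosomes 5, 11 and 17 together held 125 broad intervals, or 30.5% of them, and 22.4% of all intervals. They are the chromosomes with the highest counts of broad intervals, which favours a high pooled share. On chromosome 5 alone the share was 5.94% (4.12 to 8.23%), an interval that holds the 5.03%. Chromosome X held 1 broad interval among 78 (1.28%, 0.0325 to 6.94%), which does not set it apart from the list at this number. Median heights of broad intervals lay between 20 and 26 on the 19 autosomes, above the median of all intervals on each of them.

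**Figure D5:**
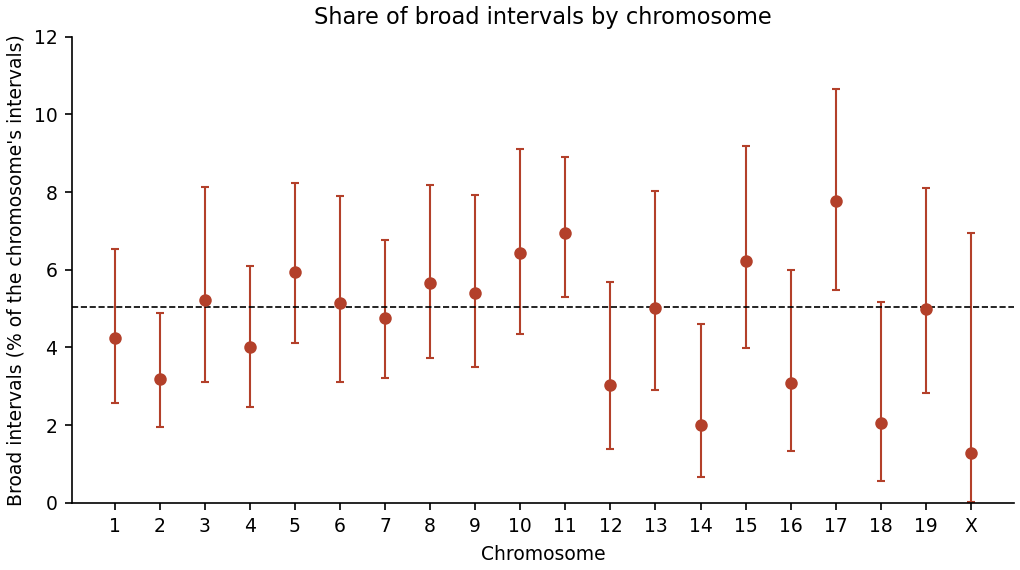
Broad intervals as a percentage of the intervals on each chromosome (points; bars are 95% exact binomial intervals), with a dashed line at 5.03%, the share in the whole list; chromosome Y, with 1 interval, is left out. The bars of chromosomes 11 and 17 lie above the line and those of chromosomes 2 and 14 below it.

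Merging of close intervals changed which regions counted as broad. After intervals at most 1 kb apart were merged, the list had 7472 regions, 610 of them at least 2500 bp wide. Of these 610, 384 held a broad interval and 226 (37.0%) consisted of narrower intervals alone. Those 226 had a median width of 3139.5 bp, a median height of 17 and up to 7 pieces. The number of broad regions therefore depends on whether adjacent intervals are counted apart, and 18 merged regions reached 10 kb against 3 intervals as deposited.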

How the data were processed

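The deposited file holds 2 tracks for the KLF4 ChIP library, per the file headers: summits with a score, and intervals with start and end in base pairs. The deposited score is the authors' own, and the sources used here do not give its scale, the library's depth, the calling threshold or the use of the input. The submitters' processing notes name BWA 0.6.1, SICER 1.1 and MACS without roles, and the builds mm9 and hg19. Positions were taken as mm9. The reference table at hand was of another build (GRCm38.p6), so the planned results on gene starts, base composition, motifs and gene lists were not run.

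Summits and intervals were joined by row order, and 8148 of 8148 summits lay inside their interval. Interval starts were converted to count from 1. A gap is the distance between the facing ends of neighbouring intervals. Shares carry exact (Clopper-Pearson) 95% intervals. Regions named are the 20 widest and 10 tallest broad intervals, the 5 on each side of the width limit and stretches of 3 or more. The low, isolated, paired and most asymmetric intervals were chosen after their values were seen. The members were chosen with earlier results of these data known. The measures were tested on simulated data. Alternatives were other width limits, merging, a height limit and other gaps. Python 3.11.15, pandas 2.3.3 and scipy 1.17.1 were used.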

Additional observations from a re-analysis of the deposited data

How the results depend on the processing

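Of 42 values recomputed under 9 alternatives, 23 stayed within the 95% interval of the reported value (or, for counts, within 1.5 times of it). The broad share of 5.03% became 10.7% at a limit of 2000 bp, 2.69% at 3000 bp, 8.16% after merging within 1 kb, 8.30% among heights at or above the median and 0.565% at 5000 bp. The share of broad intervals with a close neighbour (35.9%) was 25.5% at 2000 bp, 43.4% at 3000 bp, 69.6% at 5000 bp, 20.7% among heights at or above the median, 67.1% with a gap of 10 kb, and 0 after merging, which removes such neighbours by construction. Narrower intervals stood at 13.8%, 14.3%, 14.7%, 5.12%, 32.7% and 0 under the same settings. The height limit took lower intervals out of the list, so they no longer counted as neighbours. With the full list as possible neighbours, 135 of 365 broad intervals above the median height (37.0%) had a close one. That set leaves out heights equal to the median, which the height limit kept. A matching value for narrower intervals is not given. The median distance of the summit from the centre (17.4% of the width) was 19.3% at 3000 bp, 20.998% at 5000 bp and 22.8% after merging. The median height was 26 at 5000 bp. Stretches of 2 or more broad intervals (37) numbered 91 at 2000 bp, 20 at 3000 bp, 4 at 5000 bp and 57 with a gap of 50 kb. The limit of 5000 bp, leaving out heights of 100 or more and leaving out the stretches of 3 or 4 were chosen after seeing the data, and the last of these gave a close-neighbour share of 33.8%. Settings for gene starts, base composition, motifs and gene lists were not run, since those results were not. No paired analysis was possible because there are no replicates, so none could be left out either. With depth and threshold unknown, whether deeper sequencing would widen or join intervals was not tested.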
